A study of Homo sapiens with 6 samples.

Results

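The regions described here carried an ATAC-seq peak in all 4 libraries of the indisulam-resistant neuroblastoma cells and in neither library of the naïve cells. They were selected on peak presence alone: the peaks of all 6 lists on the 22 autosomes were merged where they shared at least 1 base, and a merged region was kept when it overlapped a peak in both R1 lists and both R2 lists and no naïve peak. Of 370072 merged regions, 26491 held a peak in all 4 resistant lists and 886 of these, 3.34%, met the rule. The 886 regions covered 860 kb in all. Without chromosomes 6, 13, 20 and 22 there were 548 such regions, 2.39% of the 22928 regions there with a peak in all 4 resistant lists, and 338 lay on those 4 chromosomes.

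SK-N-AS is an established human neuroblastoma cell line, and indisulam is a sulfonamide that brings the splicing factor RBM39 to the DCAF15 ubiquitin ligase for degradation. All 3 cell types were SK-N-AS cells put back into culture from xenografts in mice: naïve cells (SKNAS-Vel) from vehicle-treated mice, and R1 (SKNAS-IR1) and R2 (SKNAS-IR2) from tumours that had relapsed a second time and were taken in the third cycle of indisulam. Each cell type gave 2 libraries of 100000 cultured cells with no drug in culture, and whether the 2 are separate cultures is not stated. R1 and R2 are each the cells of a single line, so a difference between naïve and resistant cells is also a difference between lines.

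ATAC-seq reads mark DNA that the Tn5 transposase can reach. Such open stretches are mostly promoters, which sit at transcription starts and are open in many cell types, and enhancers, which lie in introns or between genes and differ far more between cell types and cell states. In neuroblastoma, enhancer sets separate an adrenergic state, held by factors such as HAND2 and GATA3, from a mesenchymal state linked to AP-1, RUNX, TEAD and PRRX1, and SK-N-AS is known as a line of the mesenchymal kind.

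The libraries differed widely in depth, which bears on every value below. A pair of quantities is given for a peak: its tags, the whole number of read ends piled up at the summit, recovered from the deposited fold and p-value, and its level, the tags divided by the background rate of that list. Background rates came to 2.29 and 1.35 tags for naïve cells, to 7.94 and 5.43 for R1 and to 0.85 and 0.899 for R2, so the deepest R1 library had 9.34 times the background of the shallowest R2 library. The lowest listed peaks held 9 and 7 tags in naïve cells, 18 and 14 tags in R1 and 6 tags in both R2 lists. A naïve region with no peak has no value in these lists. It was set beside a detection level of 3.5 in naïve library 1 and 4.44 in naïve library 2, 1 tag under the lowest listed peak of each, and their mean of 3.97 was used for ratios. This is no strict ceiling, since a stretch narrower than 200 bp is not listed whatever its height. Because the rule used the peaks of all 6 lists, and because 2 naïve against 4 resistant libraries cannot give an exact one-sided p below 0.0667, no test was made on presence or level and the values stand as a description.

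Sequences under some of the highest-ranked regions are shown in 3 groups, in hg38 on the plus strand. The groups do not cover every region. The first, narrow regions far from protein-coding starts, is shown by 101 bases centred on the summit of the first R2 list, and these windows hold no match to the 9 motifs searched other than the E-box. All 3 are A- and T-rich beside the windows at starts, with a GC content of 38.6%, 42.6% and 30.7%.
Intergenic region of chromosome 18, chr18:57398385-57398485: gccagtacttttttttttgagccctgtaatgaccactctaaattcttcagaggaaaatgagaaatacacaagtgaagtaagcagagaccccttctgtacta
Intronic region of chromosome 9, chr9:111252299-111252399: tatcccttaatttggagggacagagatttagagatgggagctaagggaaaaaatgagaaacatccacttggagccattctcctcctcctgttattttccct
Intergenic region of chromosome 10, chr10:26403617-26403717: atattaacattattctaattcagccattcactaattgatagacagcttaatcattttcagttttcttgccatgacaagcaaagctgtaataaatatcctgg

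The second group are windows at annotated transcription starts. A start, here and below, is that of any annotated transcript and can lie inside its gene. It does so at CHN2, BMP7 and GRIK2, whose outermost annotated starts are at 29146547, 57266641 and 100962701 on their chromosomes. The windows of this group are also 101 bases around the summit and touch no annotated exon. Capitals mark matches to the motifs other than the E-box, here 2 GC boxes (GGGCGG) and an overlapping CTCF match (AGGNGGC) at KCNJ8 and a RUNX match (TGTGGT) at GRIK2. GC content was 57.4% at CHN2, 69.3% at KCNJ8, 67.3% at BMP7 and 71.3% at GRIK2.
CHN2 start, chr7:29289356-29289456: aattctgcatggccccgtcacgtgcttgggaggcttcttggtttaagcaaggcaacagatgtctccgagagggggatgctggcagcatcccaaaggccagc
KCNJ8 start, chr12:21774833-21774933: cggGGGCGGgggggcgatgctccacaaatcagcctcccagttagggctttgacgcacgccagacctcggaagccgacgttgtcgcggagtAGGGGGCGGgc
BMP7 start, chr20:57244670-57244770: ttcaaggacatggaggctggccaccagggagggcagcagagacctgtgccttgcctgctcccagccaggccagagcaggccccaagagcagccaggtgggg
GRIK2 start, chr6:101393523-101393623: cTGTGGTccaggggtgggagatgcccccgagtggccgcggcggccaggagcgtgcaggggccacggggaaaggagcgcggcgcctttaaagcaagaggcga

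A last group are tandem repeats. The ADPRHL1 intron is shown over 168 bases, the first copy of an 84-base unit in lower case and the next copy in capitals. The 2 copies match at 76 of 84 bases.
ADPRHL1 intron, chr13:113437236-113437403: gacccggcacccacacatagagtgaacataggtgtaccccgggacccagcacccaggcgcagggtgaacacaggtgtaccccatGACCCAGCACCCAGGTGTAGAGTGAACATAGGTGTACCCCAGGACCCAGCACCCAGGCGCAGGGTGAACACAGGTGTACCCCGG

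Among the 10 highest-ranked regions off chromosomes 6, 13, 20 and 22, levels in the 4 lists followed 2 patterns. An intergenic region at chr18:57398335-57398535, ranked first of all 886, held 80 and 62 tags in R1 and 65 and 70 in R2. Those counts are levels of 10.1 and 11.4 in R1 and of 76.4 and 77.9 in R2, so both R2 libraries stood far above both R1 libraries. The intronic region at chr9:111252248-111252447, inside a gene known only by its Ensembl number, had levels of 10.1 and 10.5 in R1 and 82.3 and 65.6 in R2. At chr10:26403569-26403768 R1 held 58 and 39 tags and R2 held 35 and 48. A region in an intron of PUM2 had 62 and 59 tags in R1 and 36 and 34 in R2, and PUM2 codes for a Pumilio protein that represses mRNAs. In these 4 regions R2 lay above R1 in level without overlap, and the nearest naïve peak was 11605 to 104235 bp away.

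In the other 6 of the 10, the levels of R1 and R2 overlapped or R1 was the higher. At an annotated start inside CHN2, a Rac GTPase-activating protein, the region chr7:29288733-29289954 held 203 and 113 tags in R1 and 16 and 26 in R2. These are levels of 25.6 and 20.8 in R1 and 18.8 and 28.9 in R2. KCNJ8, a subunit of ATP-sensitive potassium channels, had 231 and 135 tags in R1 and 16 and 22 in R2 at chr12:21774339-21775135, and its nearest naïve peak was 116283 bp away. CFAP161, a cilium gene, held 166, 106, 17 and 16 tags in R1 and R2 in turn at chr15:81133966-81134627. RAPGEF5, an exchange factor for Rap GTPases, held 199, 135, 17 and 14 tags at chr7:22192855-22194051. The remaining 2 regions, on chromosome 7, lay 103724 and 93298 bp from a protein-coding start and were at 178, 112, 15 and 16 tags and at 185, 142, 15 and 15 tags.

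**Figure D1:**
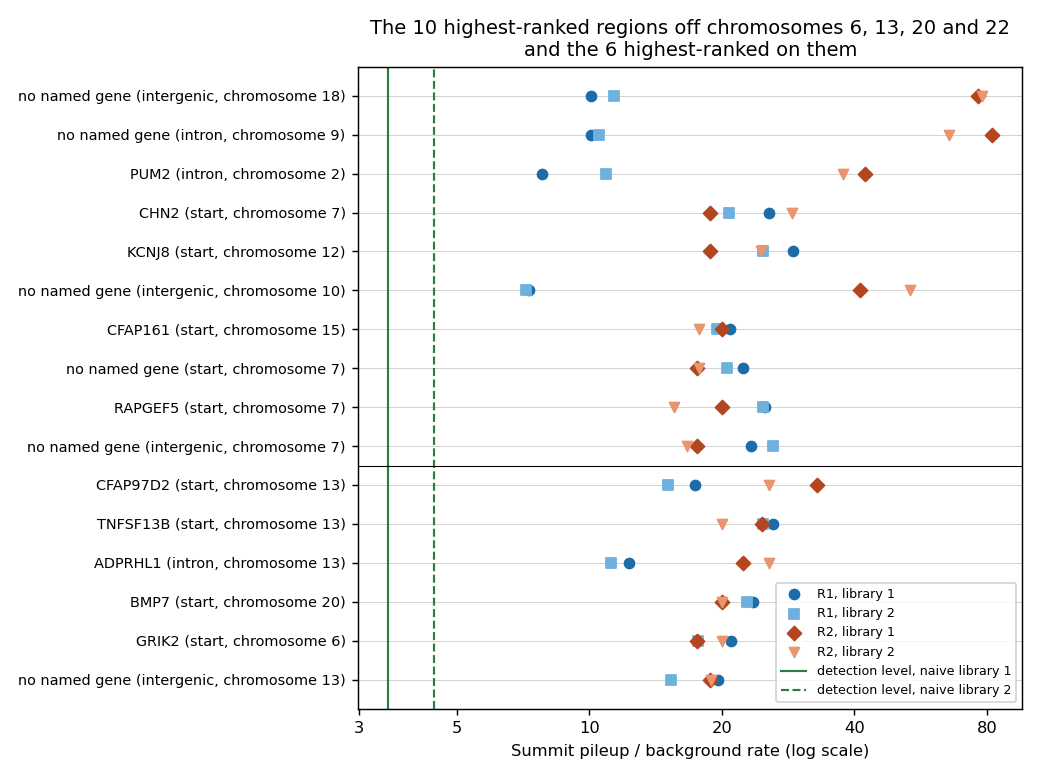
Level (summit pileup over background rate, log scale) of the 10 highest-ranked resistant-only regions off chromosomes 6, 13, 20 and 22, above the line, and of the 6 highest-ranked on them, in each of the 4 resistant libraries, with the detection levels of the 2 naïve libraries as vertical lines (3.5 and 4.44). The regions on chromosomes 18, 9 and 10 and in the PUM2 intron sit between 37.8 and 82.3 in R2 and between 7.18 and 11.4 in R1, while at most gene starts the 4 points lie close together.

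On the 4 chromosomes the highest-ranked region was at an annotated start inside CFAP97D2 on chromosome 13, at chr13:114198483-114201057, with 138 and 82 tags in R1 and 28 and 23 in R2. Its summit lies in a tandem repeat of 78 bp. A window of 301 bases there had a self-match of 96.9% at that shift, and the 50-base summit sequence occurs 2 times in hg38. TNFSF13B, the B-cell cytokine BAFF, had 207 and 135 tags in R1 and 21 and 18 in R2 at chr13:108269708-108270776. ADPRHL1, an ADP-ribosylhydrolase-like gene, held 98, 61, 19 and 23 tags and lay 285 bp from a naïve peak. BMP7, a bone morphogenetic protein, held 187, 124, 17 and 18 tags on chromosome 20. GRIK2, a kainate receptor subunit, held 167, 96, 15 and 18 tags on chromosome 6, where the regions shared by all 6 lists in the same 10 Mb stood at 1.97 times the naïve level.

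Over all 886 regions, the median was 59 and 41 tags in the R1 lists and 10 tags in both R2 lists. As levels, the medians were 7.43 and 7.54 in R1 and 11.8 and 11.1 in R2, with ranges of 2.77 to 29.1 and 3.13 to 26.1 in R1 and of 7.06 to 82.3 and 6.68 to 77.9 in R2. The 23750 regions with a peak in all 6 lists were higher, at median levels of 13.5, 13.2, 15.3 and 15.6. Within each list, the median percentile rank of the resistant-only regions was 88.8 and 86.5 in R1 and 47.8 and 48.3 in R2. They were therefore among the stronger peaks of the deep R1 lists and ordinary peaks of the shallow R2 lists. The median ratio of the resistant level to the naïve detection level was 2.54, with 1.86 for R1 and 3.02 for R2 alone, against 1.16 for the measured ratio of regions in all 6 lists. With the 25th percentile of naïve pileups as the detection level, the median ratio fell from 2.54 to 1.54. The lowest listed levels of the resistant lists bound these ratios from below, and the highest was 11.1.

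**Figure D2:**
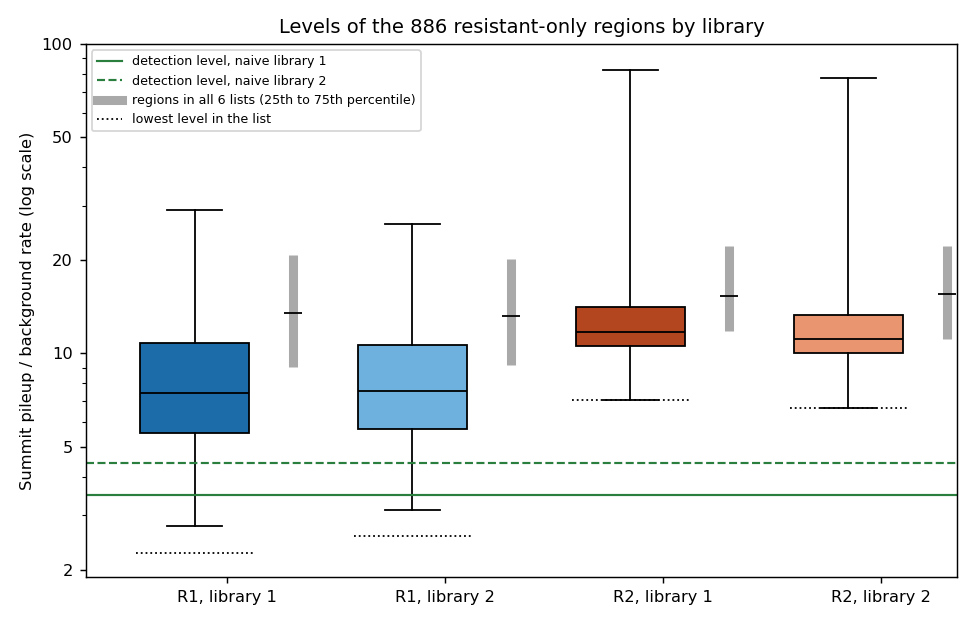
Levels (log scale) of the 886 resistant-only regions in each resistant library as boxes (quartiles and median, whiskers to the lowest and highest), beside the 25th to 75th percentile and median of regions in all 6 lists. Dotted lines mark the lowest level listed in a library and green lines the naïve detection levels: the R2 whiskers begin at the threshold of their own list, and the R1 whiskers run from under the naïve detection levels up to 29.1.

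The libraries of one line agreed better than the lines did. Across the 886 regions, as a description over regions that share libraries, Spearman's rho of the levels was 0.911 between the R1 libraries, 0.382 between the R2 libraries and 0.163 to 0.225 between R1 and R2, against 0.965, 0.775 and 0.728 to 0.745 over regions in all 6 lists. Both R2 levels exceeded both R1 levels in 633 regions, 71.4%, and the reverse held in 89, while over regions in all 6 lists R2 was above R1 in 52%. The rule bears on this count, since an R2 peak is listed only from a level of 7.06 or 6.68 and an R1 peak from 2.27 or 2.58. In 67 regions the mean R2 level was more than 3 times the mean R1 level. These thresholds bear on that count too, and it was not made over regions in all 6 lists.

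R2 peaks of these regions were narrow. An R2 peak of exactly 200 bp, the narrowest width listed, was found in 381 of 886 regions, 43%, and in 12.9% of regions in all 6 lists. The share was larger for lower peaks: at R2 levels under 10 it was 68.1% of the resistant-only regions, 63.3% of those with 1 naïve peak and 55% of those in all 6 lists, at levels of 10 to 15 it was 43.3%, 33.1% and 21%, and over 15 it was 16.7%, 13.3% and 1.08%. Within the middle band the resistant-only regions were still the lower, with R2 medians of 11.8 and 11.1 against 12.9 and 12.2 in all 6 lists. A set of 12 regions, 1.35%, was at most 210 bp wide in all 4 resistant lists, against 0.109% of regions in all 6 lists, and these 12 include the regions on chromosomes 18, 9 and 10 shown above. They held 24 to 80 tags in R1 library 1 and 10 to 70 in R2 library 1, and 10 of the 12 had an R2 level over 3 times the R1 level. Summits of the 4 lists lay within 250 bp of each other in 610 regions, 68.8%, with a median spread of 119 bp.

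Just inside the rule, 12 regions had the lowest listed pileup of 6 tags in an R2 list, and the nearest naïve peak to any region was 18 bp away. A naïve peak lay within 500 bp of 111 regions, 12.5%, and within 10000 bp of 516, 58.2%, with a median distance of 6038 bp. Just outside the rule, 1855 regions had a peak in all 4 resistant lists and in 1 naïve list, 1422 of them in naïve library 1 at a median of 16 tags and 433 in naïve library 2 at a median of 11 tags. Another 5447 regions had no naïve peak and a peak in 3 of the 4 resistant lists. Almost all of these lacked an R2 peak: with R2 library 1 left out of the rule 3939 regions met it, of which 886, 22.5%, had a peak in that library, and with R2 library 2 left out 3195 met it and 27.7% had a peak there. The same shares were 95.7% and 95.2% for the R1 libraries. Over all merged regions, a peak was listed in 86% and 67.2% by the R1 libraries and in 10.4% and 11.3% by the R2 libraries.

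Without naïve library 1, 2308 regions met the rule, and without naïve library 2 it was 1319. Scaled to the depth of naïve library 1, the lower R2 level of a resistant-only region came to a median of 24.2 tags, more than 88.3% of the peaks listed there hold, and in naïve library 2 to 14.3 tags, more than 74.5% hold. All 886 scaled values are above the lowest listed naïve peak, which the R2 thresholds fix, as they fix that the lowest scaled value was 15.3 tags in library 1 and 9.02 in library 2.

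The regions were unevenly spread over the chromosomes. Chromosome 13 held 170, or 28.1% of its 605 regions with a peak in all 4 resistant lists, and so 19.2% of the resistant-only regions against 2.28% of all regions in the 4 lists. Chromosome 20 held 96 (6.69%), chromosome 6 held 48 (5.76%) and chromosome 22 held 24 (3.48%). Beyond 60 Mb on chromosome 13 the share was 31.2% (168 of 539) and before it 3.03% (2 of 66). Chromosome 6 had 14.7% (36 of 245) beyond 60 Mb and 2.04% (12 of 588) before it. Off these 4 chromosomes, chromosome 18 with 6.5% and chromosome 4 with 5.89% stood highest and chromosome 19, with 5 regions and 0.305%, lowest. The opposite set, 647 regions with a peak in both naïve lists and in no resistant list, had 140 regions on chromosome 19, 98 on 7, 73 on 1 and 24 on 6, and 2, 1 and 1 on chromosomes 13, 20 and 22.

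The level of regions open in all 6 lists also differed between chromosomes, in part in the same order. Their median ratio of resistant to naïve level was 1.78 on chromosome 13, 1.43 on 22, 1.42 on 20, 1.25 on 6 and 0.926 on 19. Chromosome 22 goes against this order, with a high ratio and 3.48% resistant-only regions, while chromosomes 18 and 4 had larger shares at a ratio of 1.28 each. In the 10 Mb bin from 110 Mb on chromosome 13, 94 of 328 regions (28.7%) were resistant-only and the shared regions stood at 1.83. From 70 to 80 Mb of chromosome 13 it was 22 of 49 (44.9%) at 2.08, and from 90 to 100 Mb of chromosome 6 it was 9 of 27 (33.3%) at 2.22. The values of 2.08 and 2.22 are medians of 22 and 10 shared regions. Off the 4 chromosomes, 180 to 190 Mb of chromosome 4 held 19 of 119 regions (16%), with shared regions at 1.28, the same as the chromosome's median, and the bin before it held 1 of 43 (2.33%). Copies of a chromosome per cell, cells with an open site and openness per copy cannot be told apart in these lists.

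**Figure D3:**
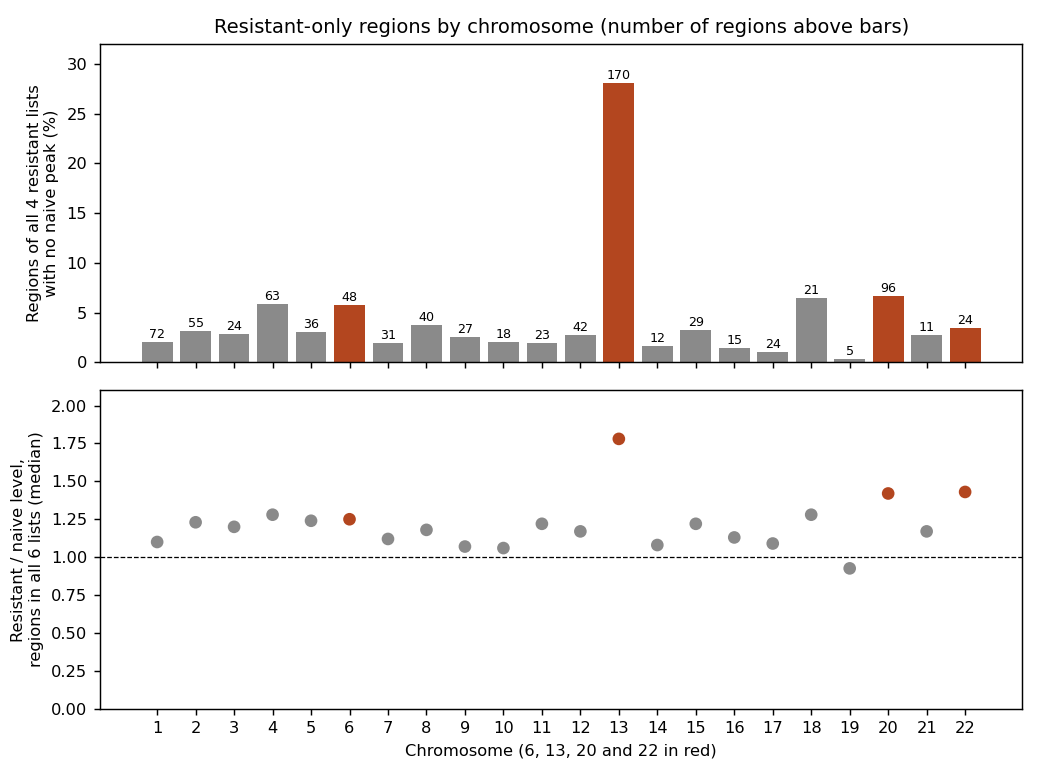
Upper panel, percent of regions with a peak in all 4 resistant lists that had no naïve peak, by chromosome, with the number of such regions above each bar. Lower panel, median ratio of resistant to naïve level over regions in all 6 lists. Chromosome 13 stands apart in both panels, at 28.1% and 1.78, and chromosome 19 is lowest in both.

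The ratio of each resistant-only region was set against that of the shared regions in its own 10 Mb bin. It was at least 1.5 times that of the bin in 499 of 548 regions off the 4 chromosomes, in 169 of 338 on them and in 56 of 170 on chromosome 13. At least 2 times the bin was reached by 305, 59 and 14 regions, and at least 3 times by 57, 10 and 4. The median ratio itself was nearly the same, 2.54 off the 4 chromosomes and 2.55 on them, so these counts mostly follow the bin values. All 886 ratios were at least 1.5. The lowest listed levels of the resistant lists bound these ratios from below, but at a value under 1.5. The counts also set a ratio to a detection level beside a measured ratio. With the 25th percentile of naïve pileups as detection level, the median over all regions was 1.54. The counts were not repeated with that level. On chromosome 13, 114 of 170 had a ratio less than 1.5 times that of the shared regions nearby.

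**Figure D4:**
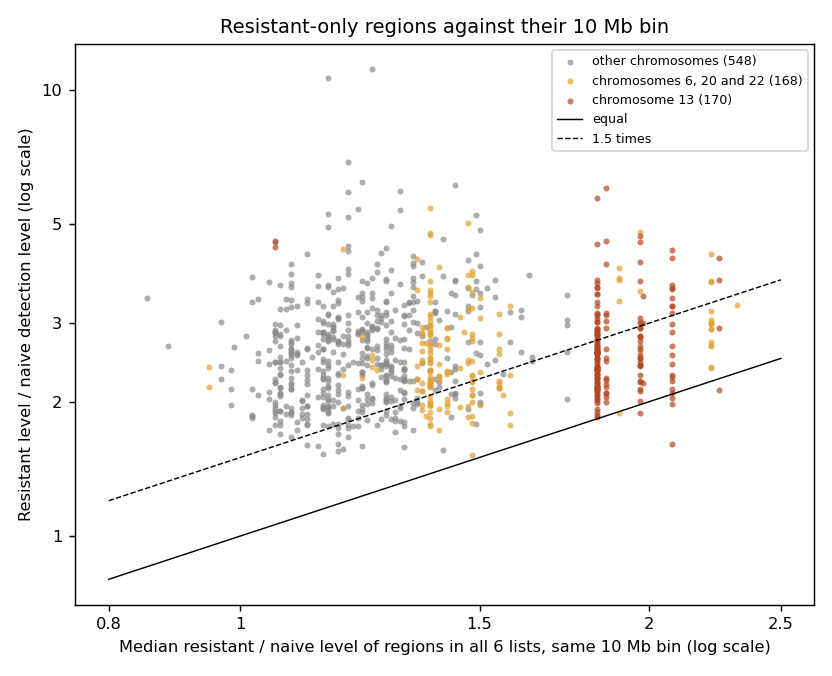
Ratio of resistant level to naïve detection level of each of the 886 regions (vertical, log scale) against the median resistant to naïve ratio of regions in all 6 lists in the same 10 Mb bin (horizontal, log scale). Most of the 548 regions off chromosomes 6, 13, 20 and 22 lie above the dashed line of 1.5 times the bin, and 114 of the 170 on chromosome 13 lie below it.

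Most resistant-only regions lay away from annotated transcription starts. A transcription start of any annotated gene was within 1000 bp of 211 regions, 23.8% (exact 95% interval 21 to 26.8, counting error only), and the others were in introns (366, 41.3%), between genes (285, 32.2%) or in exons (24, 2.71%). Of regions with 1 naïve peak 32% were at starts, and of regions in all 6 lists 63%. Starts were fewer among low peaks in general, and at R2 levels of 10 to 15 the shares were 24.3%, 33.1% and 51.1%. Chromosome 13 had 16.5% at starts, and the 548 regions off the 4 chromosomes had 24.8%. Median GC content in the 250 bp on each side of the summit came to 53.7% in the resistant-only regions, 55.3% with 1 naïve peak and 62.1% in all 6 lists, and the median merged width was 726, 955 and 2010 bp. A second resistant-only region lay within 100 kb of 243 regions, 61 of them off the 4 chromosomes. The same count was not made for the comparison sets, so it does not show whether the resistant-only regions lie closer together.

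A protein-coding start was within 1000 bp of 150 regions, 99 off the 4 chromosomes and 51 on them. Besides those above, the highest-ranked off the 4 chromosomes included ERC2, a scaffold of presynaptic active zones, with 105, 74, 18 and 15 tags in the R1 and R2 libraries in turn. PPP1R17, a phosphatase inhibitor, had 218, 137, 12 and 24 tags. PHGDH, the first enzyme of serine synthesis from glycolysis, had 193, 120, 23 and 11 tags, and CXXC4, an inhibitor of Wnt signalling, had 208, 122, 19 and 11. At both genes R2 library 2 had the lowest level of the 4. STOX2, ZNF675, ADAMTS15, the potassium channel gene KCNJ6, DEF8, NDST4, OCA2, ERMP1 and SSH2 followed, with 76 to 149 tags in R1 library 1 and 11 to 14 in R2 library 1. A naïve peak lay 866 bp from the OCA2 region.

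On the 4 chromosomes the starts next in rank belonged to SLITRK1, RRAGD, TTC28, IRAK1BP1, LIN28B and ARHGEF7. SLITRK1, a neuronal membrane protein that shapes neurite growth, held 106 and 66 tags in R1 and 15 and 21 in R2, and no naïve peak lay within 3175478 bp, the longest distance of all. LIN28B, which blocks maturation of let-7 microRNAs and is a known neuroblastoma gene, held 120 and 74 tags in R1 and 13 and 11 in R2 at chr6:104940276-104941664. The region also covers a start of the antisense gene LIN28B-AS1, the one nearest its centre. Its ratio was 3.54 where the shared regions of the bin stood at 1.97. RRAGD, a Rag GTPase of the mTORC1 pathway, held 126, 71, 16 and 11 tags. All 6 of these genes lay in bins where the shared regions were also higher in resistant cells, by 1.4 to 2.25 times. The 2.25, in the bin of SLITRK1, is a median of only 4 shared regions.

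Motif matches were counted within 50 bp of the R2 summit on both strands, with overlapping matches of different motifs both counted. AP-1 (TGANTCA) was found in 42 of 886 regions, 4.74% (exact 95% interval 3.44 to 6.35), against 5.55% of regions with 1 naïve peak and 5.04% of regions in all 6 lists. Away from starts the shares were 5.19%, 7.21% and 8.84%. At R2 levels of 10 to 15 they were 5.63%, 8.68% and 8.11% there, so the 2 comparison sets changed order. GATA (GATAA) was found away from starts in 8.44%, 7.13% and 5.61%, TEAD (GGAATG) in 7.56%, 9.51% and 7.49%, and RUNX (TGTGGT) in 7.56%, 8% and 7.49%. CTCF (AGGNGGC) was found in 11.6%, 13.5% and 16.8%, the GC box (GGGCGG) in 8.74%, 7.69% and 10.9%, and ETS (GGAAGT) in 5.93%, 6.1% and 5.79%. The homeodomain letters TAATTA were found in 1.04%, 1.11% and 0.558%. Median GC content over the same 3 sets was 52.1%, 53.5% and 57.9%, and its part in the motif shares was not tested. The E-box (CANNTG), a short and common motif, was found away from starts in 48.4%, 47.4% and 44.1%. NRF1 (GCATGCGC) was found in 3 regions.

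**Figure D5:**
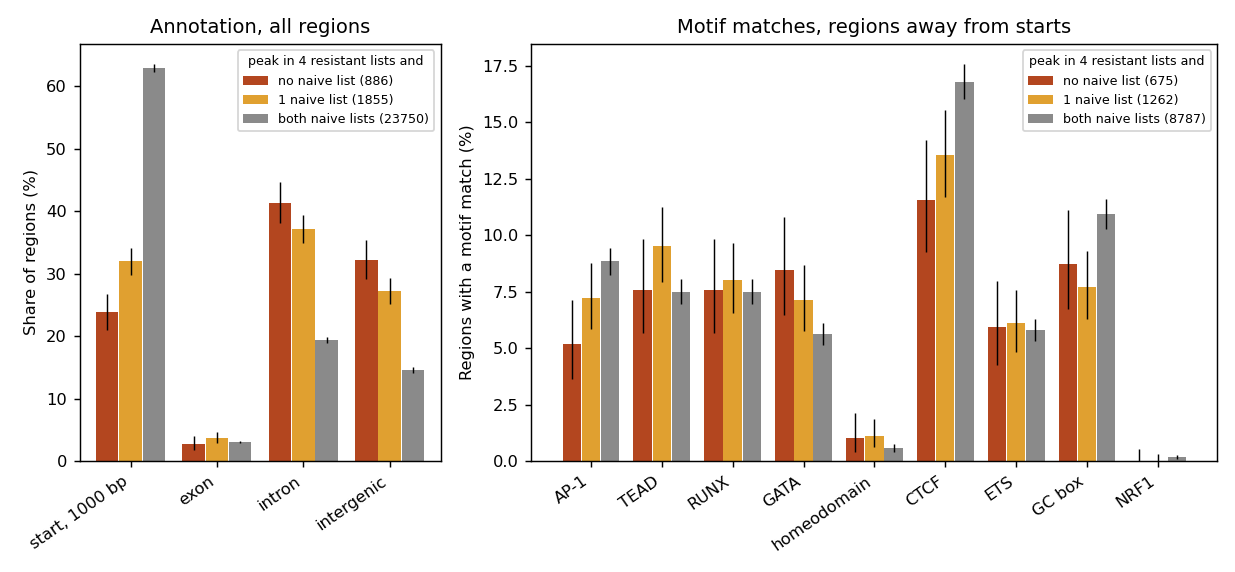
Left, share of regions by annotation for regions with a peak in all 4 resistant lists and in no, 1 or both naïve lists. Right, share of the regions away from starts with a motif match near the R2 summit. Error bars are exact 95% binomial intervals over regions, which are not replicates. Starts make up 63% of regions with both naïve peaks and 23.8% of those with none, and AP-1 shares away from starts are 8.84% and 5.19%.

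Of the AP-1 matches, 4 lay at genes of the fixed lists. They are shown as examples of the motif, with AP-1, RUNX and ETS (GGAAGT, here on the other strand) matches in capitals over 101 bases. Away from starts AP-1 matches were less frequent in resistant-only regions, at 5.19%. The shares were 7.21% of regions with 1 naïve peak and 8.84% of regions in all 6 lists.
PCDH9 intron, chr13:66657241-66657341: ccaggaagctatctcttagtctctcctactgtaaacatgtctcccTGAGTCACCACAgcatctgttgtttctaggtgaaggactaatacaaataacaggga
ALK intron, chr2:29528963-29529063: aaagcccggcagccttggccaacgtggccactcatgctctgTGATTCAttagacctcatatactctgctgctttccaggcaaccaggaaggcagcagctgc
TNC start, chr9:115118952-115119052: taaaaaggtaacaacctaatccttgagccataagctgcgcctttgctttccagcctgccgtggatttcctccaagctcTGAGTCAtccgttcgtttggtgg
COL4A2 intron, chr13:110499431-110499531: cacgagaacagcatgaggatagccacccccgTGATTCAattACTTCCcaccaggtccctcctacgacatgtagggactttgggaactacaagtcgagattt

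Tandem repeats were more frequent than in the comparison sets. A self-match of at least 70% at a shift of 10 to 100 bp, in a window of 150 bp on each side of the summit, was found in 93 regions, 10.5%, against 7.76% of regions with 1 naïve peak and 3.46% of regions in all 6 lists. Of the 93, 19 were on chromosome 13, 10 on chromosome 4 and 8 each on chromosomes 1 and 20, and 52 lay within 3 Mb of a chromosome end. A chromosome end was that near for 20.2% of the resistant-only regions and for 16.6% of regions in all 6 lists. Off the 4 chromosomes it was 15.3%, and on chromosome 13 it was 44.7% against 42.6% of the regions there in all 6 lists. The 50 bases at the summit occurred more than once in hg38 in 53 regions, 5.98%, against 4.2% and 2% of the other sets. How reads from such repeats were placed was not tested.

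Genes with several of these regions were mostly on chromosome 13. In all, 13 genes held at least 3 in the gene body or 2 kb upstream, and 10 of them are on chromosome 13. ATP11A, a phospholipid flippase, held 9 of its 30 regions with a peak in all 4 resistant lists, RASA3, a Ras GTPase-activating protein, 7 of 33, and COL4A2, a basement membrane collagen chain, 5 of 14. CFAP97D2 held 4 of 5, GRTP1 4 of 8, CLYBL 3 of 4, GPC6 3 of 5, STK24 3 of 9, TFDP1 3 of 13 and MCF2L 3 of 32. Over all of chromosome 13 the share was 28.1%, so RASA3, TFDP1 and MCF2L were below it and ATP11A was near it. Elsewhere, CDH4, which codes for R-cadherin, held 4 of 42 on chromosome 20. PTPRN2, a phosphatase-like protein of secretory granules, held 3 of 23 on chromosome 7, and DLGAP2, a postsynaptic scaffold gene, 3 of 21. Over the chromosomes of these genes the shares were 6.69%, 1.91% and 3.8%. Some regions in ATP11A, RASA3, COL4A2, CFAP97D2, GRTP1, MCF2L, CDH4, PTPRN2 and DLGAP2 were among those with a tandem self-match.

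Across the autosomes, 425 of 19103 protein-coding genes, 2.22%, held at least 1 resistant-only region. Of the 13 genes for the indisulam target and its ligase, 1 did: CUL4A, the scaffold of the ligase, had 47 and 34 tags in R1 and 7 and 10 in R2 in an intron at chr13:113214519-113216510. Its ratio of 1.99 was close to the 1.83 of the shared regions in its bin. No resistant-only region lay at RBM39 or DCAF15. Of 25 ABC transporter genes 1 held one, in an intron of ABCC4, the efflux pump MRP4, with 51 and 35 tags in R1 and 26 and 14 in R2, again on chromosome 13 and with a tandem self-match of 63.6%. None of the 18 adrenergic regulators and none of the 24 mesenchymal factors held one. Of these genes, 14 and 22 had a region with a peak in all 4 resistant lists, with 24 and 30 such regions in all. Over all protein-coding genes 2.17% of such regions were resistant-only. With so few regions, a count of none cannot be told apart from that share. In the p53 and apoptosis list 1 gene of 17, BCL2L1, and 1 splicing factor gene of 38, PRPF6, held one, both introns on chromosome 20 with 7 or 8 tags in R2. A naïve peak lay 401 bp from the PRPF6 region.

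Receptor tyrosine kinase genes held 4 among 50. Per region this was 4 of 115, 3.48%, against 2.17% over all protein-coding genes, and off the 4 chromosomes 2.83% against 1.54%, in genes with a median length of 109 kb against 27.9 kb. ALK, the receptor mutated in familial neuroblastoma, held 131 and 94 tags in R1 and 10 and 9 in R2 in an intron at chr2:29528745-29529889, a ratio of 3.5 where the bin stood at 1.23. ERBB4 held 103, 40, 13 and 12 tags in an intron. PDGFRB held 42, 28, 10 and 8 in an intron, 476 bp from a naïve peak, and EPHA7 91, 48, 9 and 11 at its start, 219 bp from a naïve peak. Their R2 peaks held 8 to 13 tags.

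Axon guidance and neuronal adhesion genes held regions most often, 10 of 62 genes or 16.1%. These genes are long, with a median of 290 kb against 27.9 kb for all protein-coding genes, and counted per region 12 of their 113 regions with a peak in all 4 resistant lists, 10.6%, were resistant-only, against 2.17% over all genes. Off the 4 chromosomes it was 6 of 98, 6.12%, against 1.54%. GPC6, a cell-surface heparan sulfate proteoglycan, held 3 regions on chromosome 13, the highest at chr13:94308604-94309128 with 146 and 100 tags in R1 and 18 and 15 in R2. PCDH9, GPC5 and SLITRK1 are on chromosome 13 as well. Elsewhere, the netrin receptor DCC held 81, 53, 9 and 10 tags at its start, the Slit receptor ROBO2 105, 54, 12 and 8 at a start, CNTN4 115, 87, 10 and 9 at a start, and CNTN1 112, 53, 9 and 10 in an intron. EFNA5, an ephrin ligand, held 52, 35, 11 and 9 tags and SEMA6D 80, 53, 9 and 8, the latter 203 bp from a naïve peak. The R2 libraries had 8 to 12 tags in these 6 regions, so their R2 values rest on few reads. The list was drawn up with earlier results of these data known.

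Extracellular matrix genes held 8 regions at 4 of 53 genes, 5 of them at COL4A2 and 1 at the adjacent COL4A1 on chromosome 13. Per region this was 8 of 106, 7.55%, against 2.17% over all genes. The COL4A1 intron held 106, 66, 16 and 10 tags, and the 5 COL4A2 regions 34 to 83 tags in R1 library 1 and 8 to 19 in R2 library 1, with ratios of 1.85 to 2.88 where the bin stood at 1.83. COL12A1 on chromosome 6 held 98, 55, 10 and 12 tags at its start. Off the 4 chromosomes the single one was at the start of TNC, tenascin-C, with 79, 54, 7 and 10 tags, 1 of 81 regions of these genes there or 1.23%, against 1.54% over all genes.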

How the data were processed

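ATAC-seq peak lists of 6 libraries (2 naïve, 2 R1, 2 R2) were used as deposited. The authors aligned paired reads with BWA 0.7.12-r1039, removed duplicates with Picard 1.65 and SAMtools 1.3.1, offset read ends, and called peaks per library with MACS2 2.2.7.1 at a q of 0.01 and an extension of 200 bp, with versions per the labels. For each peak the deposited files give the −log10 of its p-value, the −log10 of its q-value, and its fold, a ratio of pileup to background. The methods name hg19 and the labels hg19 and hg38. The peaks end within all 22 hg38 autosomes, and hg38 with GENCODE release 44 was used. Each fold is the tags plus 1 over the rate plus 1, which gave rates and tags and was tested on simulated data, as were merging and overlap against BEDTools 2.31.1. R1 lists go deeper than naïve and R2 lists, so a missing naïve or R2 peak can be a matter of depth.

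Regions were ranked by mean percentile rank by p over the resistant lists. The 10 best off chromosomes 6, 13, 20 and 22 and the 6 best on them were named, with the 20 and 10 best at protein-coding starts (some are not reported here), genes with at least 3 regions and genes of the fixed lists. The members, lists and motifs were chosen with earlier results of these data known. Repeat masking is absent from the reference used, so self-matches and 50-base copy counts were used instead. Alternatives are given below. Python 3.11.15, NumPy 2.4.6, pandas 2.3.3, SciPy 1.17.1 and pysam 0.24.0 were used.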

Additional observations from a re-analysis of the deposited data

How the results depend on the processing

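No paired analysis was possible because the results come from no test and library numbers name no shared culture. Of 65 alternative values, 46 stayed within 1.5 times a count, within the exact 95% interval of a share, or within 0.579, the SD over resistant libraries, of a ratio. The number of resistant-only regions (886) was 482 with resistant peaks of −log10 q of at least 5, 505 without those with an R2 peak 200 bp wide, 548 without chromosomes 6, 13, 20 and 22, 1403 with the peaks of the first R2 list as regions, and 926 to 3939 without a library in turn, highest without R2 library 1. The share on the 4 chromosomes (38.1%, interval 34.9 to 41.4) was 42.7% with the first R2 list as regions, 33.6% with summits within 250 bp of their median, 42% without the 200 bp peaks and 29.9% to 37.3% without a library in turn. The share at starts (23.8%) was 16.9% with protein-coding genes only and 20.1% to 28.5% without a library in turn. AP-1 was found in 8.92% with 100 bp either side of the summit and in 4.11% to 5.68% without a library in turn. The median ratio (2.54) was 2.19 scaled by shared regions, 2.27 to 2.88 without a library in turn, and 1.54 with the 25th percentile of naïve pileups as detection level. Leaving out the 124 regions at repeats gave 762 regions. These last 2 alternatives were chosen after seeing the data. The causes of these moves were not tested.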

Other observations

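The X chromosome was not part of the rule. There, 15 of 255 regions with a peak in all 4 resistant lists had no naïve peak, 5.88%, near the values of chromosomes 4 and 6. The regions with an R2 level over 3 times the R1 level numbered 67, and 22 of them had an R2 peak 200 bp wide. No such count was made over regions in all 6 lists.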
